A study of Mus musculus with 4 samples.

Results

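The cas copy of chromosome X was compared between wild-type (WT) and Sirt7-/- (KO) female mouse tail tip fibroblasts (TTF), from mus/cas hybrid animals, by Hi-C. The design text of the series instead names CHART-seq of Xist, but sample labels and headers give Hi-C, as which the matrices were read here. All groups shared the hybrid genome, the sex and the cell type, and they differed in the Sirt7 genotype. Each genotype had 2 samples, and the samples of a genotype were combined into 1 matrix per copy of the chromosome before deposit. The rule took the WT and the KO matrix of the cas copy at 250 kb and kept the bins that were not all 0 in either. It kept 591 of 683 bins, out of 2732 bins in the 4 matrices of that size in the series. The same 92 bins lacked data in both genotypes. The matching 100 kb matrices, with 1463 of 1707 bins kept, served as a check of the bin size. They come from the same combined samples, so a like sign there is no replication.

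Chromatin divides into A compartments, which are rich in genes and open, and B compartments, which are poor in genes and compact, and regions of a kind contact each other more often. A chromosome that is active shows this checkerboard clearly. On the inactive X of female cells, the RNA Xist coats the chromosome, the compartments are faint, and the chromosome folds into a pair of megadomains that meet at the Dxz4 repeat. SIRT7 is a sirtuin, an NAD-dependent deacylase of chromatin and the nucleolus. The labels do not say which copy was inactive or whether the cells were a clone or a mixture with either copy inactive. They give no ages, and correlation matrices of 1 chromosome hold no expression by which the cell type could be checked.

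Each deposited value is a correlation, taken over the contacts that 2 bins make with the rest of the chromosome, which is near 1 for bins with alike contacts and below 0 for bins with opposite ones. With 1 matrix per genotype there was no replicate check and no test between genotypes, so every difference given here describes these matrices only. Read depth is unknown. The SD of the entries was 0.129 in WT and 0.115 in KO at pairs 2 Mb apart or more, and adjacent bins correlated at 0.197 in WT and 0.184 in KO. At 100 kb adjacent bins correlated at 0.0690 in WT and 0.0717 in KO. The part of a difference in depth or noise in the results was not tested.

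The first question was how strong the compartments were in each genotype. The first principal component of the mean of both cas matrices held 80.0% of the variance, and 42.0% at 100 kb. Class A was the 20% of bins at the gene-rich end of it, with 118 bins and 340 protein-coding genes, and class B the 20% at the other end, with 118 bins and 55 genes. Promoters differed between the classes as well, which the choice of classes did not use directly. Among genes with a sequence at hand, the 250 bases before the start held a median of 11 CG dinucleotides in class A and 3 in class B. The bins were chosen on both matrices together, so that the checkerboard itself is no finding, whereas its strength in WT and in KO could differ.

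Like regions were less alike in KO, and unlike regions less opposite. B-B pairs averaged 0.292 in WT against 0.254 in KO, and the KO to WT ratio was 0.869. A-B pairs averaged -0.147 against -0.129, with a ratio of 0.879. A-A pairs averaged 0.130 against 0.121, with a ratio of 0.930, and this order turned when each matrix was divided by its SD, where A-A pairs stood at 1.00 SD in WT and 1.05 SD in KO. The contrast between pairs within a class and pairs between classes came to 0.357 in WT against 0.316 in KO. Its ratio was 0.885 here and 0.884 at 100 kb. In units of each matrix's SD the contrast came to 2.76 in WT against 2.74 in KO. The SD of all entries had a ratio of 0.890 between KO and WT, close to that of the contrast.

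The kinds of pairs differed in how many members were lower in KO. Of B-B pairs 75.6% were lower in KO, of A-A pairs 55.8% and of A-B pairs 36.0%, against 51.6% of all 170366 pairs. Classes set without any Hi-C value gave the same order of the genotypes in each kind of pair. Pairs of bins with 3 or more genes went from 0.0353 in WT to 0.0315 in KO, pairs of bins with none from 0.103 to 0.0890, and pairs between them from -0.0280 to -0.0198. That contrast came to 0.120 in WT against 0.0992 in KO, with a ratio of 0.831. The matrix that set the classes mattered for the size: the ratio was 0.824 with classes from WT alone and 0.947 with classes from KO alone. Classes chosen on a matrix favour the contrast of that matrix.

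**Figure D1:**
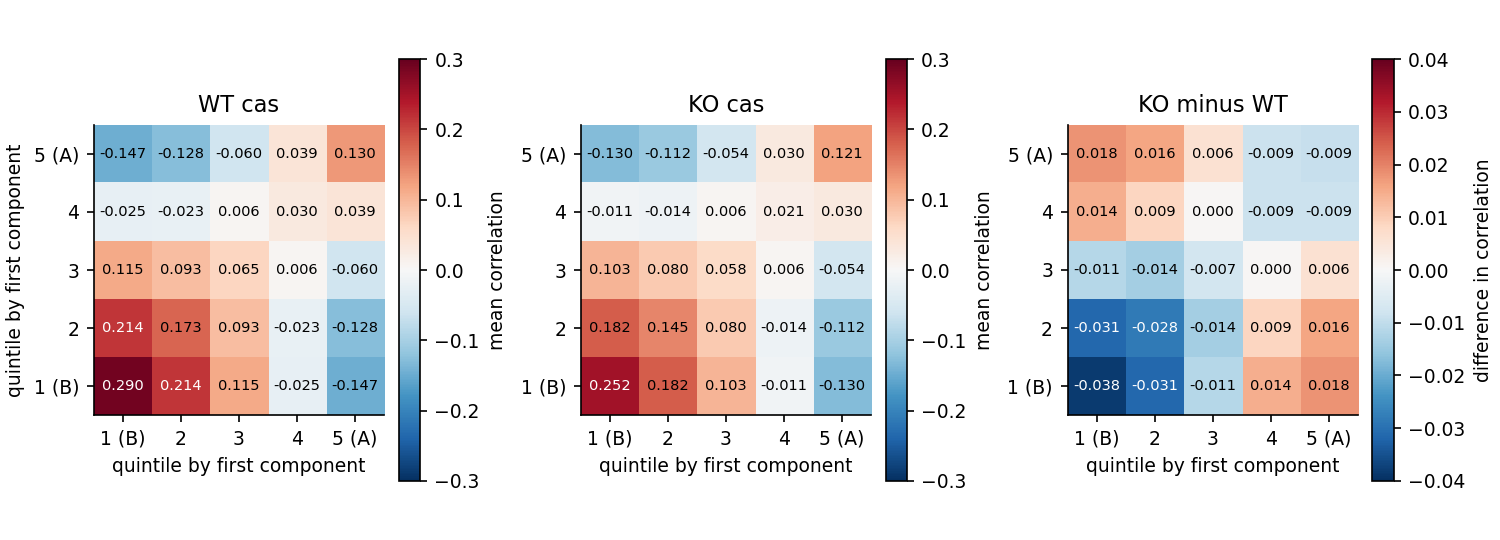
Mean correlation between quintiles of the 591 cas bins, ordered along the first principal component from the B end (1) to the A end (5), in WT, in KO and as KO minus WT, with the colour scale in correlation units beside each panel. The largest difference lies at the B end, from 0.290 to 0.252 within quintile 1, and the A end within itself goes from 0.130 to 0.121.

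Over quintiles of the first component the pattern was graded rather than limited to the ends. Pairs within quintile 1, the B end, went from 0.290 in WT to 0.252 in KO, pairs between quintiles 1 and 2 from 0.214 to 0.182, and pairs within quintile 2 from 0.173 to 0.145. All these combinations lay at the gene-poor end and were lower in KO. Pairs between quintiles 3 and 4 were near 0 in both genotypes, with 0.00586 and 0.00630. Pairs between quintiles 1 and 5 went from -0.147 to -0.130. Every combination was closer to 0 in KO except that of quintiles 3 and 4.

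Distance separated the kinds of pairs. The B-B ratio of KO to WT was 0.882 at 2 to 5 Mb and 0.802 beyond 100 Mb, where 82 pairs remained. A-A pairs differed little at short range, with 0.138 (WT) and 0.137 (KO) 5 to 10 Mb apart, and were higher in KO at 10 to 20 Mb, with 0.134 and 0.138. Farther apart they were lower in KO, with 0.135 and 0.121 at 50 to 100 Mb and 0.102 and 0.0905 beyond. At 100 kb A-A pairs were higher in KO in every class up to 50 Mb, with 0.0468 (WT) and 0.0522 (KO) 2 to 5 Mb apart, and lower beyond 50 Mb. A-A pairs beyond 50 Mb were thus lower in KO at both bin sizes, and those 10 to 20 Mb apart higher at both. The contrast had its highest ratio, 0.926, at 5 to 10 Mb and its lowest, 0.846, beyond 100 Mb.

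**Figure D2:**
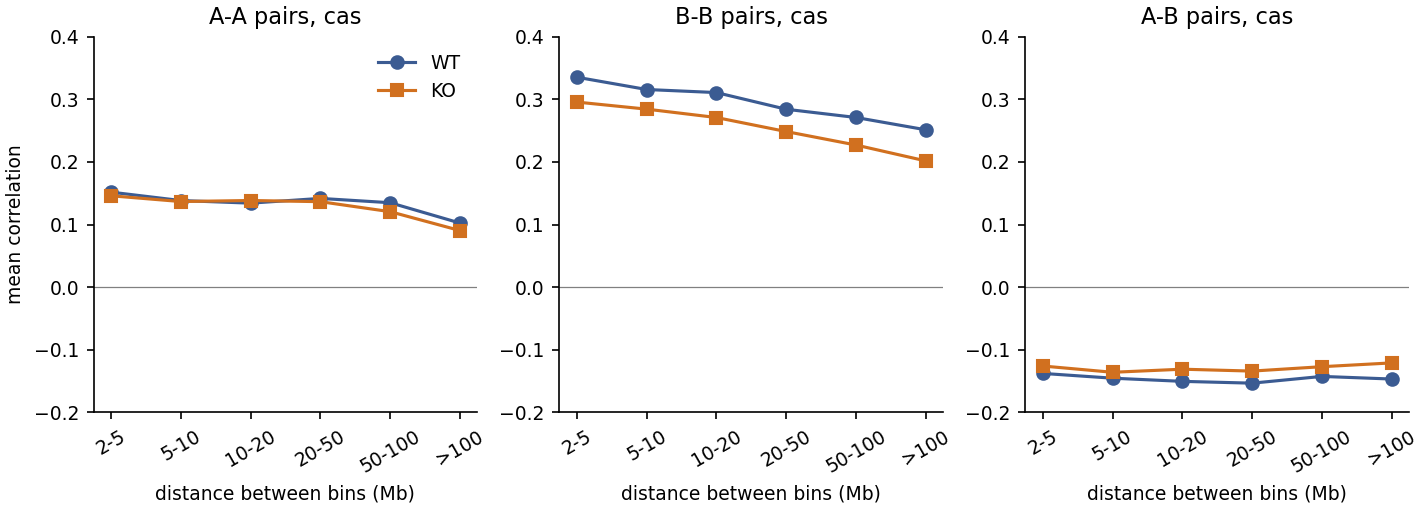
Mean correlation of A-A, B-B and A-B pairs of 250 kb bins on cas against the distance between the bins in Mb, with circles for WT and squares for KO. The KO line of B-B pairs lies below that of WT at all 6 distances and the KO line of A-B pairs lies nearer to 0, whereas the A-A lines lie close together up to 50 Mb.

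A compartment score was then given to each bin, its mean correlation with class A bins minus that with class B bins at least 2 Mb away, so that it is positive in A-like and negative in B-like bins. Over the 591 bins, which share their libraries, WT scores correlated with KO scores at 0.964. The score was lower in KO in 230 bins (38.9%) and higher in 361 bins (61.1%), and it moved toward 0 in 441 bins (74.6%). Class A had a mean score of 0.278 in WT and 0.251 in KO, lower in 89 of 118 bins. Class B had -0.440 in WT and -0.384 in KO, higher in 114 of 118 bins. Of the 355 bins between the classes, 218 were higher. The slope of KO on WT scores through the origin was 0.852. Bins without a protein-coding gene had a median difference of 0.0407, and bins with one had 0.00539. Their median WT scores were -0.332 and -0.0178. With each WT score multiplied by the slope of 0.852 first, the median differences were -0.00995 and -0.00115, so the gap did not hold.

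The difference was seen in every block with class B bins and less evenly for class A. In blocks of 10 Mb, the ratio of KO to WT class B scores ranged from 0.754 at 100 to 110 Mb, where it rests on 1 bin, to 0.926 at 90 to 100 Mb, with 8 bins. No class B bin lay at 10 to 20 Mb or from 140 Mb on. The ratio of class A scores was lowest, 0.779, at 30 to 40 Mb with 4 bins. It was above 1 in the blocks at 50 to 60 Mb, with 1.14 over 6 bins, and at 130 to 140 Mb, with 1.01 over 5 bins. The first of these blocks begins at the Firre region and the second holds the Armcx and Gprasp genes, both described further on.

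Shifts of 0.05 or more were seen in 288 bins. Of these 175 were higher in KO (29.6% of all bins) and 113 lower (19.1%), and 287 of the 288 had the same sign at 100 kb, against 539 of all 591 bins. The differences had an SD of 0.0761 over bins and ran from -0.398 to 0.427. Adjacent bins shifted together, with a correlation of 0.641 between the differences of neighbours, so bins are not separate observations.

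A change of sign was seen in 37 bins (6.26%), of which 25 were positive in WT (4.23%) and 12 negative (2.03%). None belonged to class A or B. This was close to fixed in advance, since the classes were set on the mean of both matrices. There a bin of opposite signs lies near the middle. Most had a WT score near 0, with a median size of 0.0307 against 0.279 over all bins. Of the 3 largest such changes in each direction, those lower in KO were the bin of Bmp15, an oocyte growth factor gene, from 0.230 in WT to -0.168 in KO, the bin of Gprasp1, Gprasp2, Bhlhb9 and Arxes2, from 0.148 to -0.163, and the bin of Shroom4, an actin-binding protein gene, from 0.0690 to -0.204. These 3 scores were positive in WT and negative in KO. Those higher in KO were a bin without a protein-coding gene left of Fmr1, from -0.291 to 0.136, the bin of the olfactory receptor genes Olfr1320 and Olfr1321, from -0.237 to 0.0672, and the bin of Arhgap36 from -0.108 to 0.105.

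**Figure D3:**
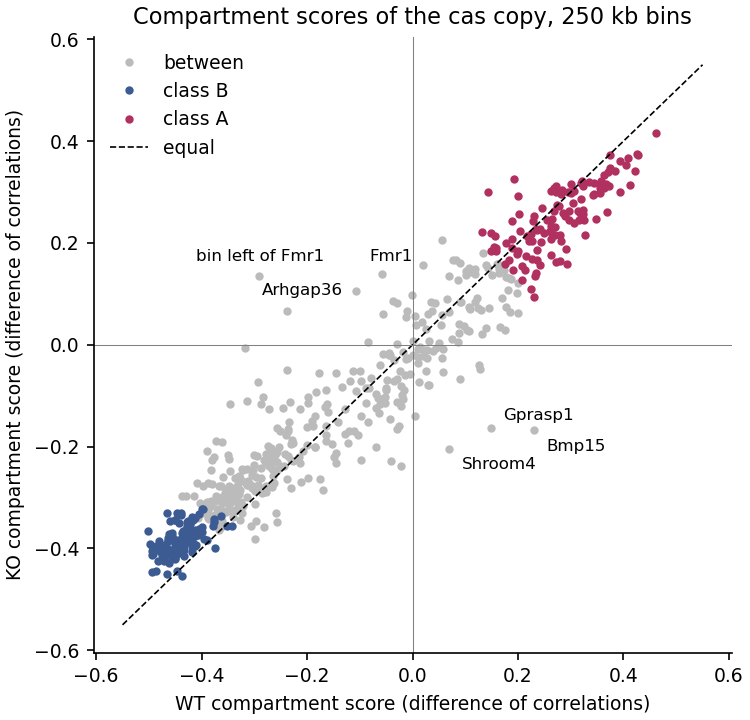
Compartment score of each of the 591 cas bins in KO against WT, both as differences of correlations, with the bins of class A, of class B and between coloured apart and a dashed line of equal scores. Class B bins lie above the line in 114 of 118 cases, and the bins of Bmp15, Gprasp1 and Shroom4 sit far below it.

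The promoters of Bmp15, Gprasp1, Arhgap36 and Fmr1, whose bin went from -0.0583 to 0.140, are shown because the bins of these genes, placed by midpoint, changed sign in opposite directions. They were picked after the values were seen. Each is the 250 bases before a transcript's start, from RefSeq on GRCm38.p6 (mm10), printed from the 5′ end on the gene's strand, with CG dinucleotides in capitals. CG reads the same on both strands, and 90.0% of the 739 promoters at hand in kept bins held it at least once. Fmr1 lay at chrX:68678291-68678540 on the plus strand, Arhgap36 at chrX:49463695-49463944 on the plus strand, Bmp15 at chrX:6320725-6320974 on the minus strand and Gprasp1 at chrX:135742442-135742691 on the plus strand. The Arhgap36 window lies inside the annotated gene, which has a start farther upstream, and Armcx5 shares the start of Gprasp1. The Gprasp1 window itself lies in the bin left of the one that holds the gene's midpoint, and that bin went from -0.0626 to -0.107 without a change of sign. The other 3 windows lie in the bins that changed sign.
Fmr1: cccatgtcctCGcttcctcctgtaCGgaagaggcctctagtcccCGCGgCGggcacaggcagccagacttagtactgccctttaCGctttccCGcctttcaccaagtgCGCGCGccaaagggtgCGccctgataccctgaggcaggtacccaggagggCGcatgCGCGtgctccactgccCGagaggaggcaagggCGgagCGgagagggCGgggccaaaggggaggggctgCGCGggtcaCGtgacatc
Arhgap36: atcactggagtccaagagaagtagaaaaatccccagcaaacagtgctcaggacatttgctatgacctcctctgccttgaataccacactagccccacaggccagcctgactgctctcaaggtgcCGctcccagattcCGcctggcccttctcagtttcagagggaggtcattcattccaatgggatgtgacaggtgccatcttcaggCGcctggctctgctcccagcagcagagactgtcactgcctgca
Bmp15: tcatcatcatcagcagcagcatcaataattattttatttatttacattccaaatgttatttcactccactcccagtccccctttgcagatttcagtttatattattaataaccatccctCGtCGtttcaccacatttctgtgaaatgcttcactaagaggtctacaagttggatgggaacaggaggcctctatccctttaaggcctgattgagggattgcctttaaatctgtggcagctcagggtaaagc
Gprasp1: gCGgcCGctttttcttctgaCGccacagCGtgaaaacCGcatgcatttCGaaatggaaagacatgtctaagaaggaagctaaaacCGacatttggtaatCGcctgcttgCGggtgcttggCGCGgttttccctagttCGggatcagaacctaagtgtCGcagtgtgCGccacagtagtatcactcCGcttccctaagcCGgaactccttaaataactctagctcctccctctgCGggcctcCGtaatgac

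Fmr1 held 21 CGs and Gprasp1 18, whereas Arhgap36 held 3 and Bmp15 2, against a median of 7 over all promoters. A promoter rich in CG and a poor one were thus found among the genes placed in bins higher in KO, and likewise among those in bins lower in KO. Over the runs of bins described next, genes in stretches higher in KO had a median of 3 CGs and genes in stretches lower in KO had 7.

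Bins that shifted lay in runs. A run was at least 3 adjacent bins with data whose scores all differed by 0.05 or more in 1 direction, and runs were ranked by the sum of the differences. There were 20 runs higher in KO, with 100 bins (16.9%) over 25 Mb, and 12 runs lower in KO, with 49 bins (8.29%) over 12.25 Mb. All 32 had the same sign at 100 kb, in matrices of the same samples from which the runs were chosen. After each WT score was multiplied by the common slope, 18 of the 20 higher runs and all 12 lower runs kept their sign in the mean, though not their size. When runs were called anew on these scaled scores, 6 were higher, with 32 bins, and 11 lower, with 48 bins. Dividing each matrix by its SD gave 5 higher and 11 lower runs. Higher runs were thus fewer than lower ones with either scaling, as they were with a threshold of 0.1 (2 and 4). At that threshold, however, the higher runs held 17 bins and the lower runs 12.

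The runs differed in gene content. The 20 higher runs all had a negative mean score in WT, held 61 protein-coding genes or 0.61 per bin, and had 44 class B bins and 1 class A bin. Of the 12 lower runs, 8 had a positive mean in WT, and they held 105 genes or 2.14 per bin, with 8 class A bins and none of class B. All kept bins held 1.45 genes per bin. Since scores moved toward 0 in most bins, this split by sign in WT follows the pattern over all bins and is not particular to the runs.

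The longest run higher in KO spanned 4.75 Mb at chrX:64250001-69000000, 19 bins from Slitrk4 to Fmr1nb. Slitrk4 and Slitrk2 encode neuronal transmembrane proteins, and Fmr1 encodes an RNA-binding protein of the synapse. Its mean score was -0.386 in WT and -0.233 in KO. The 6 genes nearest its middle were Slitrk2, Gm52432, Gm52436, Gm52439, Gm1140 and Gm14692. The difference was graded. At the left end the bin of Slitrk4 went from -0.465 to -0.413, the bin of Slitrk2 from -0.382 to -0.245, and the bin of 4933436I01Rik from -0.346 to -0.117. The bin left of Fmr1 had the largest difference on the chromosome, and the bin of Fmr1 went from -0.0583 to 0.140. The last bin, that of Fmr1nb, a testis gene, went from -0.315 to -0.244, so that the difference widened toward Fmr1 and ended just past it.

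Right of that run the direction turned. The bin at 69 Mb went from -0.297 to -0.347, and the next 4 bins, with Aff2, a nuclear protein gene of the AF4/FMR2 family, formed a run lower in KO. Its mean was -0.274 in WT and -0.355 in KO, farther from 0. The direction of the difference thus turned within 1 bin of Fmr1nb.

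Bins of the long run were less like class B in KO and less opposite to class A. Their mean correlation with class B was 0.261 (WT) and 0.159 (KO), and with class A -0.123 and -0.0708. Among themselves, over the 153 pairs of bins that were not adjacent, they correlated at 0.259 in WT and 0.120 in KO. With the run of Klhl13 they went from 0.252 to 0.146 and with the run of Tmem47 from 0.239 to 0.135. Leaving all 19 bins out, the contrast between the classes had a ratio of 0.892, so the run did not carry the chromosome-wide value.

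The second run higher in KO, at chrX:49250001-50750000, held Arhgap36, Igsf1, an immunoglobulin-family membrane protein gene of the pituitary, and the receptor genes Olfr1320, Olfr1321, Olfr1322, Olfr1323 and Olfr1324. Its 6 bins had a mean of -0.211 in WT and -0.0141 in KO, and each was higher in KO by 0.0900 or more. Its mean correlation with class B was 0.150 (WT) and 0.0264 (KO), and with class A -0.0613 and 0.0122. Its last bin held the midpoint of Firre, a long noncoding RNA locus that helps to place the inactive X, and went from -0.0844 to 0.00564. The bins just outside differed by less than 0.05: the bin of Enox2 on the left had 0.165 and 0.150, and that of Stk26 and Frmd7 on the right -0.0661 and -0.104. With the long run of Slitrk2 and Fmr1, this stretch correlated at 0.143 in WT and 0.0239 in KO.

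**Figure D4:**
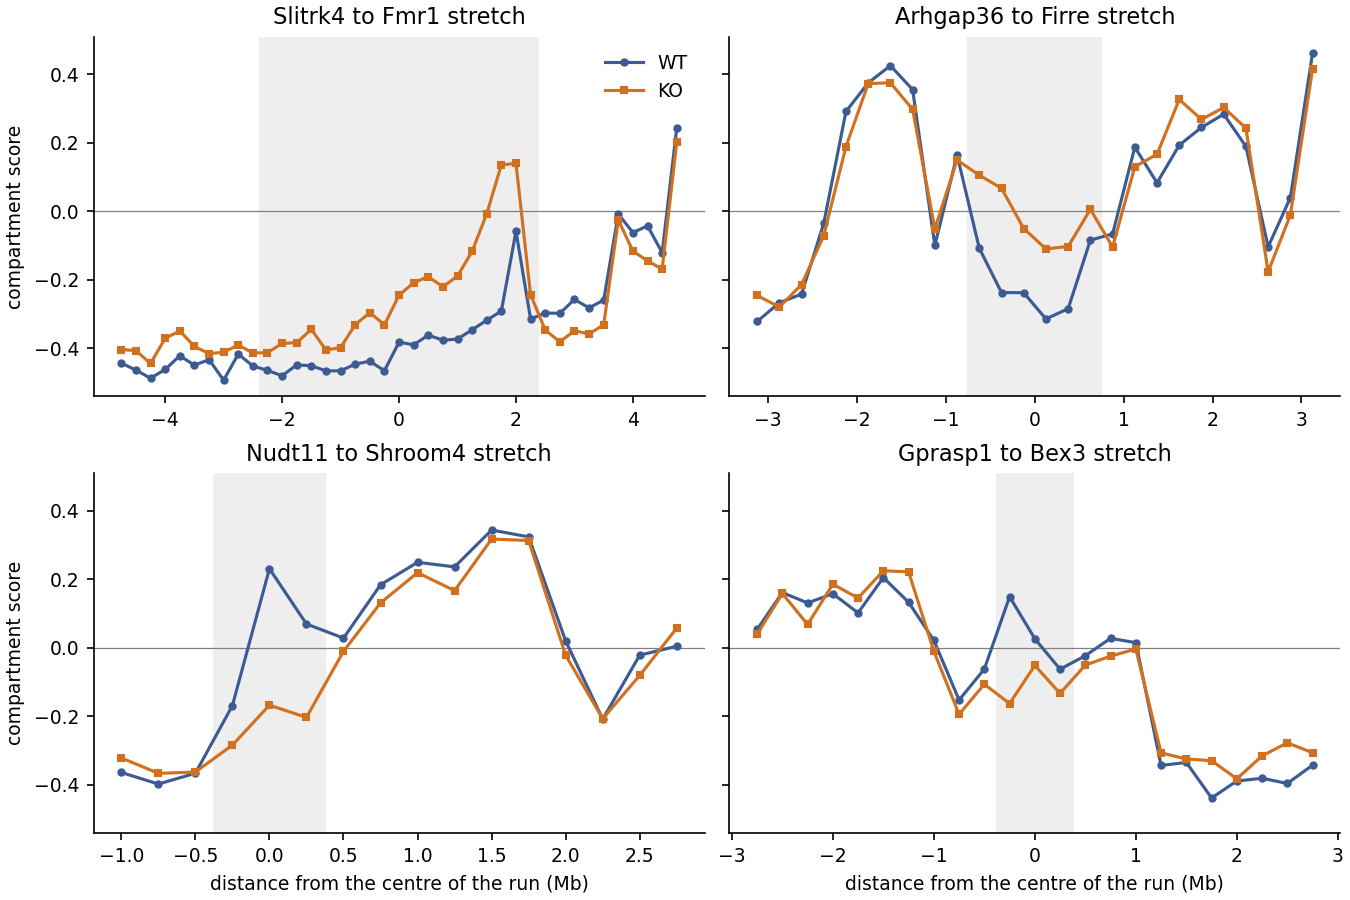
Compartment scores along 4 runs of the cas copy, with flanks on either side, against the distance from the centre of the run in Mb; grey marks the run, circles WT and squares KO. In the Slitrk4 to Fmr1 stretch the gap widens toward Fmr1 and turns past it, and the Nudt11 to Shroom4 and Gprasp1 to Bex3 stretches lie above 0 in at least 2 bins in WT and below 0 throughout in KO.

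The runs ranked 3 and 4 among those higher in KO stayed B-like. At chrX:21750001-23500000, with Klhl13, a subunit gene of a ubiquitin ligase for mitosis, 7 bins had a mean of -0.426 in WT and -0.334 in KO. At chrX:80250001-81500000, with Tmem47, a junction protein gene, and 4930595M18Rik, 5 bins had -0.374 and -0.255. Both were closer to 0 in KO without a change of sign in the mean. A later run at chrX:96250001-97500000 held Heph, a copper-dependent iron oxidase gene, Vsig4, a complement receptor gene, and Eda2r, a receptor gene of the tumour necrosis factor family, with -0.214 in WT and -0.0967 in KO. A short run at chrX:75750001-76500000, with the actin-bundling gene Pls3, had a mean that went from -0.0167 to 0.0810. No bin of it changed sign, with scores from -0.305 to 0.200 in WT and from -0.255 to 0.292 in KO. The run adjoins the bin with the midpoint of the Dxz4 locus, which had 0.142 in WT and 0.151 in KO. That locus, at chrX:75725458-75764699, ends inside the first bin of the run.

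The first run lower in KO, at chrX:102250001-104250000, covered 8 bins around the X inactivation centre. Its mean was 0.117 in WT and 0.00778 in KO, and KO minus WT was -0.0535 or below in each bin. The 6 genes nearest its middle were Nap1l2, a nucleosome assembly gene, Cdx4, a homeobox gene, Chic1, Tsx, Pabpc1l2a and 4930519F16Rik. The bin of Xist, Tsix, Cdx4 and Chic1 went from 0.235 to 0.142, that of Ftx from 0.201 to 0.0620, and that of Rlim, the ubiquitin ligase that activates Xist, from 0.129 to -0.0484. The bin of Hdac8, a histone deacetylase gene, at the left end went from 0.362 to 0.309. Its mean correlation with class A was 0.0691 (WT) and 0.0281 (KO), and with class B -0.0476 and 0.0209.

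The second run lower in KO was short and had the greatest mean difference of all runs. Its 3 bins at chrX:6000001-6750000 held Nudt11 and Nudt10, inositol phosphate hydrolase genes, Ezhip, an inhibitor gene of the Polycomb methyltransferase, Bmp15 and Shroom4. The mean score was 0.0433 in WT and -0.219 in KO. Its mean correlation with class A was 0.0320 (WT) and -0.0764 (KO), and with class B -0.0111 and 0.142. The WT mean covers bins of either sign, with -0.169 for Nudt11, 0.230 for Bmp15 and 0.0690 for Shroom4, whereas all 3 were negative in KO. Its correlation with the Klhl13 run was 0.00674 (WT) and 0.164 (KO), and with the Slitrk2 and Fmr1 run 0.00129 and 0.105. With the run of Arhgap36 and Igsf1 it went the other way, from 0.0427 to 0.0257. The bins just outside differed by less than 0.05. The bin left of the run had -0.367 in WT and -0.363 in KO. The bin of Dgkk, a diacylglycerol kinase gene, on the right had 0.0277 and -0.0109. The mean difference of the flank was 0.0257 on the left and -0.0478 over 4 bins on the right.

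The third run lower in KO, at chrX:71500001-73250000, lay between Hmgb3, a chromatin protein gene, and the Xlr genes, a multicopy family. Its 7 bins had a mean of 0.0677 in WT and -0.0400 in KO. No bin of the run changed sign, with scores from -0.0695 to 0.181 in WT and from -0.238 to 0.107 in KO. The middle of it held Gabre and Gabra3, subunit genes of the GABA-A receptor, Cnga2, the olfactory cyclic-nucleotide channel gene, Magea4, Magea10 and Prrg3. The bin of Gabra3 went from -0.0224 to -0.238 and that of Gabrq, another receptor subunit gene, and Nsdhl, a cholesterol synthesis gene, from 0.165 to 0.0345. The fourth, at chrX:162750001-163750000, held Rbbp7, a histone-binding protein gene, Txlng, Syap1, Ctps2, a CTP synthase gene, S100g, a calcium-binding protein gene, and Grpr, a neuropeptide receptor gene. Its 4 bins had 0.138 in WT and 0.0200 in KO.

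The run ranked 5 among those lower in KO, at chrX:135750001-136500000, held genes of the Gprasp, Bex and Tceal families, known from neurons. Its 3 bins went from 0.0371 to -0.116. Its correlation with class B was -0.00825 in WT and 0.0822 in KO. The bin that adjoins it on the left, with Armcx5 and Tmsb15a, also had a lower score in KO, with -0.0626 in WT and -0.107 in KO. Farther left, the bin at 134.75 Mb with Armcx2, Armcx3, Armcx6 and Nxf2 went the other way, from 0.132 to 0.221. The cluster was therefore not shifted as a unit.

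Lists of genes were then described by the bins that hold them. The bins of genes known to escape X inactivation were lower in KO in 11 of 13 cases, or 84.6%, against 38.9% of all bins and 46.9% of bins with a gene. Their median difference was -0.0511, which turned to 0.00297 once the common slope was removed. It was -0.00850 when each matrix was divided by its SD, with 10 of 13 bins lower. They were A-like in WT, with a median of 0.281, and of class A bins 75.4% were lower in KO, a share near theirs. Shroom4 and Car5b, a mitochondrial carbonic anhydrase gene with 0.231 in WT and 0.0946 in KO, were the lowest. Uba1, the ubiquitin-activating enzyme gene, with 0.299 in WT and a difference of 0.00101, and Bgn, the gene of the matrix proteoglycan biglycan, with 0.281 and 0.295, were the highest.

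Housekeeping genes were lower in 12 of 16 bins (75%), against 38.9% of all bins. Their median was -0.0267, which turned to 0.0105 when each matrix was divided by its SD and to 0.0239 with the common slope removed. Rlim and Taf1, a subunit gene of the general transcription factor TFIID whose bin went from 0.427 to 0.372, were the lowest, and Fmr1 and the splicing factor gene Rbmx, from -0.0105 to 0.0657, the highest. Fibroblast genes were lower in 10 of 14 bins (71.4%). Their median was -0.0357, which turned to 0.00239 after that division and to 0.0141 with the common slope removed. Among them Col4a6, a basement membrane collagen gene, went from 0.349 to 0.247 and Plp2, a membrane protein gene, from 0.236 to 0.166. Gpc3, a heparan sulfate proteoglycan gene, went from 0.189 to 0.243 and Srpx from 0.177 to 0.200. Both lists sat mostly in A-like bins, whose scores were lower in KO in general.

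Neuronal genes were lower in 7 of 13 bins (53.8%), against 38.9% of all bins. Their median was -0.00263, which was 0.000267 at 100 kb and -0.0174 with the common slope removed. Gabra3 and Syp, the gene of the synaptic vesicle protein synaptophysin, which shares the bin of Plp2, were the lowest. Il1rapl1, a synaptic receptor gene, from -0.455 to -0.375, and Gria3, a glutamate receptor gene, from -0.201 to -0.162, were the highest. The testis and placenta clusters were lower in 4 of 11 bins (36.4%), with a median of 0.0232, equal to that of all bins. Once the common slope was removed it turned to -0.00494, and that of all bins to -0.00542. After division by the SD it was 0.00601. Nxf3, from 0.0260 to -0.0521, and Xlr3a, from 0.181 to 0.107, were the lowest and the cancer-testis genes Mageb4, from -0.446 to -0.384, and Magea1, from -0.134 to -0.0822, the highest. The Armcx, Bex and Tceal list was lower in 6 of 8 bins (75%), with a median of -0.0382. That median was -0.0422 with the common slope removed and -0.00183 at 100 kb, where 6 of 12 bins were lower. The 4 structural bins, of Xist, Ftx, Firre and Dxz4, were lower in 2 (50%). Their median was -0.0422, which was -0.0143 with the common slope removed and turned to 0.0172 at 100 kb.

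The last question was the split of the cas copy in its distal part, in the window the rule set around a split seen earlier in these data. For a split at each of 456 bins at least 20 Mb from the ends, pairs on 1 side of it were averaged, and the mean of pairs across it at matched distances was subtracted. In that window this contrast was highest at chrX:128500001-128750000, with 0.0272 in WT against 0.0323 in KO, and the ratio was 1.19. It ranked 5 of 456 in WT and 1 in KO. The highest split in WT lay at 139 Mb, with 0.0283 in WT and 0.0306 in KO, where KO ranked 8. Between these 2 places the contrast dipped only to 0.0215 in WT and 0.0239 in KO, so that the split was a plateau more than a point.

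The larger value in KO lay mostly in pairs across the split. There they correlated at 0.00688 in WT and 0.00330 in KO, while pairs on the same side correlated at 0.0341 and 0.0356. The direction depended on which pairs were used. Among pairs of a single class, A or B, it came to 0.0890 in WT against 0.0759 in KO, and for pairs up to 20 Mb apart 0.0472 and 0.0349, both lower in KO. At 100 kb the ratio over all pairs was 1.04 at 128.5 Mb. The contrast was higher in KO at 330 of the 456 splits (72.4%), so a higher value at 128.5 Mb was not particular to that place. A split at Dxz4 gave negative values on cas, -0.0283 in WT against -0.0238 in KO.

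**Figure D5:**
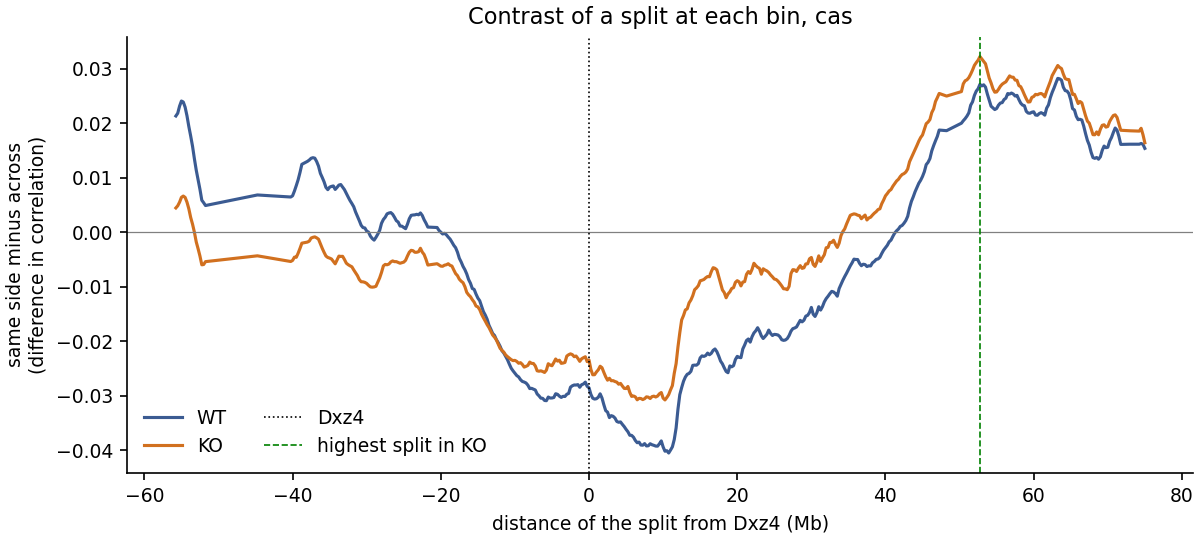
Contrast between pairs on the same side of a split and pairs across it, as a difference in correlation, for a split at each of 456 bins of the cas copy, against the distance from Dxz4 in Mb, with a line for WT and one for KO. Both lines are negative at Dxz4 and highest in a plateau on its right, and the dashed line marks the highest split in KO, with 0.0272 in WT and 0.0323 in KO.

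The split lay near the right end of a B-like stretch, with bins of mixed sign beyond it. The 10 Mb left of it held 30 bins with data, of which 18 were class B and none class A, with 11 protein-coding genes. Their mean score was -0.399 in WT and -0.345 in KO. The 10 Mb right of it held 40 bins, 5 of class A and 2 of class B, with 72 genes and mean scores of -0.0751 and -0.0704. Of these bins 18 had a positive score in WT and 13 in KO, so most were negative in each genotype. The bin of the split and its 2 neighbours on each side held no gene midpoint. Gm382 and Cldn34c4, a claudin-like gene, lay on the left and Diaph2, a formin gene, at chrX:129749668-130465834 on the right. A run higher in KO at chrX:127500001-129000000, from -0.368 to -0.297 over 6 bins, spans the split bin. Right of the split bin the scores first crossed 0 at the same bin in both genotypes. They were -0.165 in WT and -0.159 in KO at chrX:129000001-129250000 and 0.151 and 0.137 at the bin to the right. Farther on they were negative again on average, with -0.155 in WT and -0.0831 in KO at chrX:130250001-131250000.

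The mus copy of the same cells, with 592 kept bins, showed none of the 8 runs ranked 1 to 4 in either direction at a like size. These runs were chosen for their size on cas. Their mean scores on mus were small in both genotypes, which left little room for a difference of that size. With the cas classes, the Slitrk2 and Fmr1 run had 0.00222 (WT) and -0.0281 (KO), and the Bmp15 and Shroom4 run -0.00993 and -0.00224. A split at the same bin gave -0.0258 (WT) and -0.0158 (KO) for mus. Of the 20 runs higher on cas, 14 had the same sign on mus, and of the 12 lower runs 5. The share of all mus bins higher in KO was not counted, so these counts have no background to be read against. Both copies come from the same libraries, and the difference between them was not tested.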

How the data were processed

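Hi-C of 2 WT and 2 KO samples was deposited as correlation matrices of chromosome X, each value being a score from -1 to 1, per the file headers, which give the HOMER matrix format and show replicates combined and reads split by copy. The build mm10 and the tools Bowtie2, cutadapt, Juicer and HOMER are listed in the submitters' processing notes. Not given in the sources used here are versions, contact normalization, read numbers and the rule for assigning reads to a copy.

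Values were computed with Python 3.11.15, numpy 2.4.6 and pandas 2.3.3 at 250 kb over pairs 2 Mb apart or more. Exceptions are the correlations of adjacent bins and those within a run, where only adjacent bins were left out. Functions were tested on simulated matrices. Protein-coding genes were placed by midpoint from RefSeq on GRCm38.p6, and all 105 list genes matched, of which 3 of the testis and placenta list lay in bins without data. Genes named are up to 6 nearest the middle of the 4 top runs per direction, genes within 2 bins of the split, the 2 highest and 2 lowest of each list, genes of the 3 largest sign changes per direction whose sign held at 100 kb, and Xist, Dxz4 and Firre. Others were named after their values were seen. The comparison, the 7 lists and the split were chosen with earlier results of these data known. An alternative was called alike when a value kept its direction and was within 1.5 times, or a position within 1 Mb. Ratios of KO to WT were compared by their distance from 1. Alternatives were 100 kb bins, another minimum distance, division by the SD, removal of the distance trend or common slope, weak bins left out, other classes and other run rules.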

Additional observations from a re-analysis of the deposited data

Results flagged for a closer look

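Among the 4 top runs in each direction, 6 had a difference between KO and WT on cas opposite in sign to that of the same bins on mus. Each copy had 1 matrix per genotype, the mus scores lay near 0 throughout, and the difference between copies was not tested in any of them. The difference on cas minus that on mus was 0.183 for the run of Slitrk2 and Fmr1, 0.216 for the run of Arhgap36 and Igsf1, and 0.110 for the run of Klhl13. It was -0.123 for the run around Xist, -0.270 for the run of Bmp15 and Shroom4, and -0.121 for the run of Rbbp7 and Grpr.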

How the results depend on the processing

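No paired analysis was possible because the replicates, which share their numbers between genotypes, were combined in each matrix, and no replicate was left out for the same reason. Of 138 alternatives, 80 gave a like value, 51 a value or position beyond the limits given above and 7 the opposite direction.

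At 100 kb all correlations are smaller, and KO minus WT was -0.00141 for A-A, -0.0101 for B-B and 0.00534 for A-B pairs. The matrices of WT and KO correlated at 0.533, 88 of 1463 bins (6.02%) changed sign, against 6.26% at 250 kb, 3 runs were higher and 2 lower, or 45 and 27 with a threshold scaled to the smaller contrast, chosen after seeing the data. List medians at 100 kb were 0.0172 for structural loci and 0.000267 for neuronal genes, both turned, -0.0208 for escape, -0.00615 for housekeeping and -0.0120 for fibroblast genes, -0.00183 for the Armcx, Bex and Tceal cluster and 0.00145 for the testis and placenta clusters.

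With each matrix divided by its SD and the classes set anew, the contrast had a ratio of 0.997, B-B pairs differed by -0.00625, A-B by 0.00132 and A-A by 0.00638, which turned. There were then 5 higher runs and 11 lower. Housekeeping (0.0105) and fibroblast genes (0.00239) turned, and structural loci had -0.0227, escape genes -0.00850, neuronal genes -0.0103 and the testis and placenta clusters 0.00601. Subtracting the mean of each distance gave -0.00260 for A-A pairs, and removing the common slope left 6 higher and 11 lower runs.

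Classes from WT gave a ratio of 0.824, with -0.0194 for A-A, 0.0301 for A-B pairs and -0.0114 for neuronal genes. Classes from KO gave 0.947, -0.000438 for A-A, -0.0230 for B-B, 0.00625 for A-B pairs, 13 higher runs, -0.0166 for housekeeping and -0.00725 for neuronal genes. Classes from gene number gave -0.00373, -0.0136 and 0.00826 for A-A, B-B and A-B pairs. Without weak bins the neuronal median was -0.0165. A threshold of 0.1 left 2 higher and 4 lower runs, and runs of at least 2 bins numbered 35 and 25.

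The ratio of the split contrast was 1.04 at 100 kb, 1.33 after division by the SD and 1.08 with distances weighted equally, and it turned to 0.853 within classes and 0.740 for pairs up to 20 Mb. The highest split in KO lay at 139.1 Mb at 100 kb. For pairs up to 20 Mb it lay at 106.5 Mb in WT and 107 Mb in KO. With distances weighted equally, a choice made after seeing the data, it lay at 21 Mb in WT and 139 Mb in KO. The causes were not tested. Depth is unknown, so no limit from it is given.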
